A study of Mus musculus with 12 samples.

Results

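The 10 genes described here encode the enzymes that make phosphatidylcholine and phosphatidylethanolamine from choline and ethanolamine, together with a pair of lipins that supply their diacylglycerol. They were chosen by symbol (*Chka*, *Chkb*, *Pcyt1a*, *Pcyt2*, *Etnk1*, *Etnk2*, *Chpt1*, *Cept1*, *Lpin1* and *Lpin2*) and are 10 of the 20069 genes in the deposited RNA-Seq table. All 10 were expressed, that is, had at least 1 value above 8 reads per base pair (rpbp), as had 10198 genes of the table. Livers were taken from wild-type male C57BL/6 mice, 3 to 6 months old and kept in 12 hr of light and 12 hr of darkness, at 6 zeitgeber times (hr after lights on), ZT2 and every 4 hr from there to ZT22, and mRNA was sequenced at each in 2 independent series. They were killed under isoflurane anaesthesia, the labels name no altered allele and no other agent, and whether a sample is 1 animal or a pool is not given in the sources used here. The liver samples hold several cell types, so that fewer cells of a type and less RNA per cell cannot be told apart in any value below.

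Phosphatidylcholine and phosphatidylethanolamine are the main phospholipids of membranes, and the liver also packs phosphatidylcholine into lipoproteins and bile. In the CDP-choline and CDP-ethanolamine pathways, a kinase phosphorylates choline or ethanolamine, a cytidylyl-transferase turns the phosphate ester into a CDP-alcohol, and a phosphotransferase joins it to diacylglycerol. The lipins are phosphatidate phosphatases and make that diacylglycerol, which is also the precursor of triglyceride.

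Of the 10 genes, 5 had a 24 hr mRNA rhythm, against 19.1% of all expressed genes. The genes were chosen with earlier results of these data known, so the difference between these shares was not tested. *Chka*, a choline kinase, had 4.26 ± 0.198 rpbp at ZT6 and rose 8.76-fold, to 37.3 ± 1.16 rpbp, by ZT22 (SD, n = 2 for each time point here and below). The lipins *Lpin1* and *Lpin2* and the ethanolamine kinase *Etnk2* peaked on the other side of the day, at 10.5, 10.6 and 11.0 hr. *Pcyt1a*, the choline cytidylyl-transferase, peaked at 14 hr with a smaller amplitude, a call that did not hold without the ZT2 libraries. Neither *Etnk2* nor *Pcyt1a* was called with the permutation p adjusted over all expressed genes (adjusted p = 0.0544 and 0.112). *Chka* alone was called in each series taken by itself. The partner kinases *Chkb* and *Etnk1*, the ethanolamine cytidylyl-transferase *Pcyt2* and the phosphotransferases *Chpt1* and *Cept1* did not meet the criteria for a rhythm.

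Sequences just upstream of a RefSeq start are shown for the 4 genes with the largest fitted rhythms. They are shown because the mRNA of *Chka* peaked about 10 hr away from those of the other 3. Each is the 250 bases before the most upstream start in RefSeq (GRCm38.p6), 5′ to 3′ on the gene's strand, and each was found once in mm9, the build of the deposited values: *Chka* at chr19:3851523-3851772 (+), *Etnk2* at chr1:135259899-135260148 (+), *Lpin1* at chr12:16617773-16618022 (-) and *Lpin2* at chr17:71532622-71532871 (+). Capitals mark matches on either strand to motifs of clock-related factors and nuclear receptors.
Chka: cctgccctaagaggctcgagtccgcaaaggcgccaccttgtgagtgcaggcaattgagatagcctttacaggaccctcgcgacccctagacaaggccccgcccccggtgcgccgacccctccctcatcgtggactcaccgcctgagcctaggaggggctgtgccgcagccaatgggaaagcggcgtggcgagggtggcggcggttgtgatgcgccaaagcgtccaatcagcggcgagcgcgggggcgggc
Etnk2: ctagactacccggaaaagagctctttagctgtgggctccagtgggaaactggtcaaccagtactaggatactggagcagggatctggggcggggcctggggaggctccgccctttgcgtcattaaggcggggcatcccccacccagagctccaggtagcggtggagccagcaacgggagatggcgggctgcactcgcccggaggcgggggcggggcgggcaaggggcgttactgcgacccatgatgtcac
Lpin1: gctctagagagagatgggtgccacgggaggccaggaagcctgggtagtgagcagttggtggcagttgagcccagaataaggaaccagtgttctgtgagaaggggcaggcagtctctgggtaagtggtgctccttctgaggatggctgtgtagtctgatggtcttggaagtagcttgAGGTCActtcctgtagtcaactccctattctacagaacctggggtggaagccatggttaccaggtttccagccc
Lpin2: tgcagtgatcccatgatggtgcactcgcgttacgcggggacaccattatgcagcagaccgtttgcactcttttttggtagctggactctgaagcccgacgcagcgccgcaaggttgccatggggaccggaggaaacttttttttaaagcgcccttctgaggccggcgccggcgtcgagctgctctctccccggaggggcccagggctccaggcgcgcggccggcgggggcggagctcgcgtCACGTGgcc

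The motifs searched were the E-box CACGTG, the D-box TTATGNAA, AGGTCA, the core that many nuclear receptors recognise and that is only part of the ROR element, and the cyclic AMP response element TGACGTCA, and no match overlapped another. *Lpin2* held the E-box, which 6.02% of 32841 RefSeq upstream windows of the same length hold, beginning 9 bases before the start. *Lpin1* held AGGTCA, which 14% of the windows hold, beginning 74 bases before the start. The windows of *Chka* and *Etnk2* held none of these letters. D-box letters occur in 3.07% and the cyclic AMP response element in 1.55% of all windows. The only *Lpin1* start in that table lies 21196 bases upstream of the gene's start in the mm9 annotation (GENCODE), and the *Lpin2* window lies inside the annotated gene. A match is a run of letters and not a measured binding site.

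The levels of the 10 mRNAs, which are per base of exon, spanned more than an order of magnitude. Their order is limited by exons shared with other genes, 47.3% of the exon bases of *Chkb* and 24.7% of those of *Cept1* in GENCODE. The signal was also divided by the length of all exons of a gene, whatever the isoform. *Pcyt2* was the most abundant, with a mean of 359.3 rpbp over the 12 samples (SD 42.1), followed by *Chpt1* with 213.7 (SD 68.3) and *Etnk2* with 195.6 (SD 55.8). The ranges of *Chpt1* (117.5 to 341.7 rpbp) and *Etnk2* (141.5 to 305.9 rpbp) overlapped, so that their order is within the spread. *Cept1*, *Pcyt1a*, *Lpin2* and *Etnk1* had means between 62.7 and 73.9 rpbp and also overlapped. *Lpin1* followed with a mean of 40.6 rpbp, *Chkb* with 29.1 and *Chka* with 19.2, but their ranges overlapped (7.72 to 160.6, 24.0 to 35.4 and 4.12 to 38.1 rpbp), and by the median *Chkb* (27.7 rpbp) was above *Lpin1* (23.9 rpbp). The median of the 10 means was 70.3 rpbp, against 22.9 rpbp over all expressed genes.

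**Figure D1:**
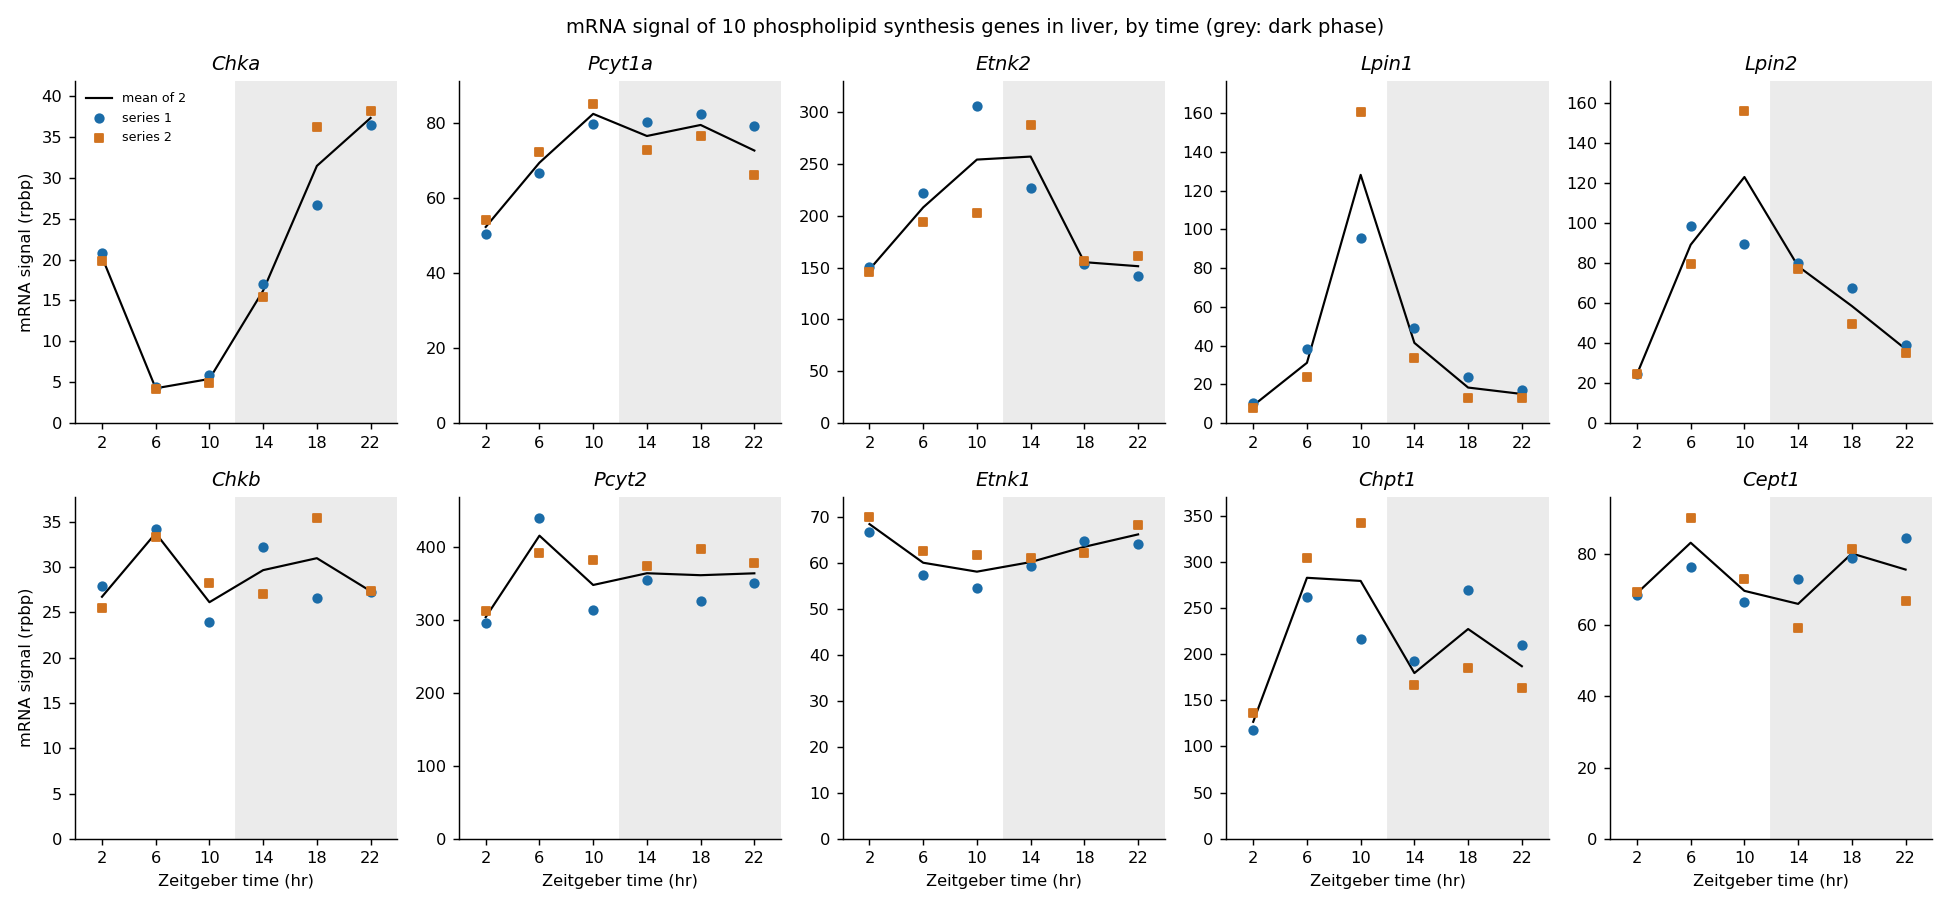
mRNA signal in rpbp (y axis, from 0) against zeitgeber time in hr (x axis) for the 10 genes; dots are series 1, squares are series 2, the line joins the means of both, and grey marks the dark phase. *Chka* is lowest at ZT6 and ZT10 and highest at ZT22, whereas *Lpin1* and *Lpin2* are highest at ZT10 and lowest at ZT2.

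A gene was called rhythmic by the criteria of the study, on F24, the share of the variance of its 12 values that a 24 hr cosine takes up: a permutation p below 0.05, F24 above 0.45 and a highest value over 1.5 times the lowest. By these criteria 5 of the 10 genes were rhythmic, against 19.1% of all expressed genes (1948 of 10198). A strong rhythm (F24 above 0.6 and a higher limit for the ratio) was called for 3 of the 10 (*Chka*, *Etnk2* and *Lpin2*), against 7.89% of all expressed genes. After the Benjamini-Hochberg adjustment of the permutation p over all expressed genes, 3 of the 10 were still called (*Chka*, *Lpin1* and *Lpin2*), against 4.81% of all expressed genes. The median F24 was 0.573 over the 10 genes and 0.310 over all expressed genes, and the median highest over lowest ratio was 1.92 and 1.64. A second test, limma's moderated F-test over the 6 time points, asks for a time effect of any shape, and 6 of the 10 genes passed it at an adjusted p below 0.05, against 20.4% of all expressed genes. It added *Chpt1* to the 5 rhythmic genes. Without the ZT2 libraries, which stand apart as described next, 4 of the 10 were rhythmic (all of the 5 but *Pcyt1a*), against 15.1% of all expressed genes, and 3 had a time effect (*Chka*, *Lpin1* and *Lpin2*), against 6.15%. A cosine and sine fitted in limma had an adjusted p below 0.05 for 4 of the 10 genes (*Chka*, *Lpin1*, *Lpin2* and *Etnk2*), against 9.22% of all expressed genes.

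**Figure D2:**
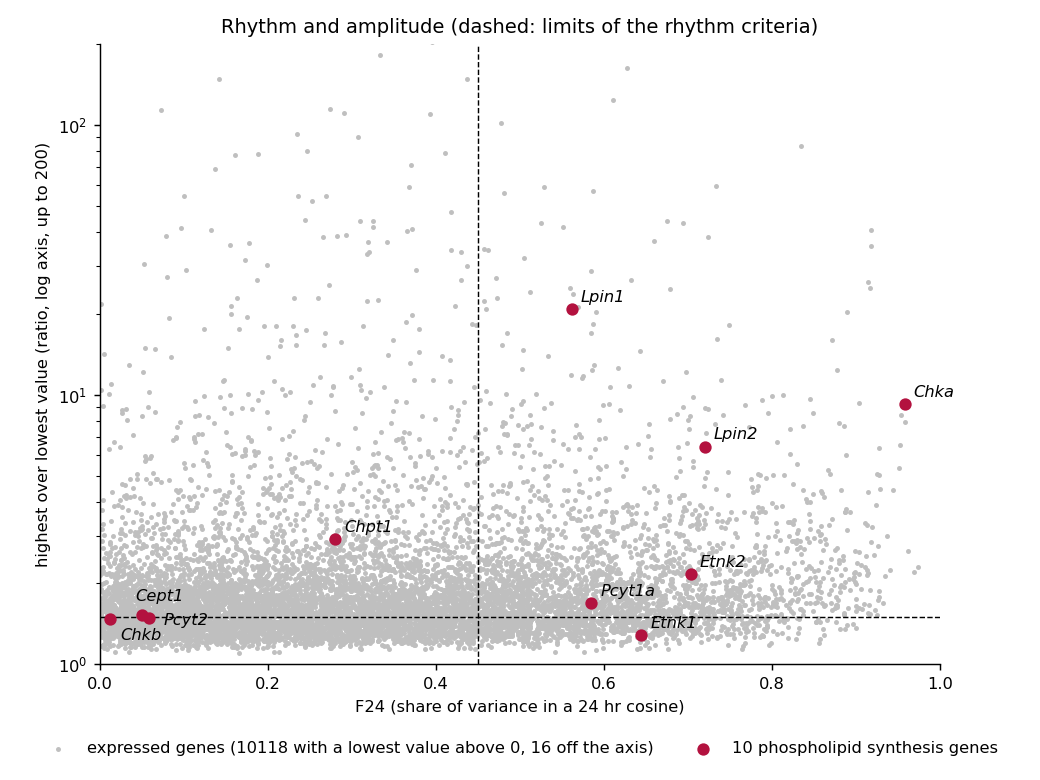
F24 (x axis) against the ratio of the highest to the lowest value (y axis, log scale) for the expressed genes whose lowest value was above 0 (grey dots) and the 10 phospholipid synthesis genes (red dots); dashed lines are the limits of 0.45 and 1.5. *Chka* lies at the far right, *Lpin1* has the highest ratio of the 10 genes, and *Etnk1* passes the limit for F24 but not that for the ratio.

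The libraries of ZT2 stood apart, and this touches the genes whose lowest values fell there. Their median correlation with the other libraries (Pearson's r of log2(rpbp + 1) across genes) was 0.944 and 0.946, against 0.961 to 0.972 for the 10 other libraries. The sum of 8 hepatocyte markers, all expressed, was 93137 and 98097 rpbp at ZT2 and 139514 to 175872 rpbp at the other times. Of the 8, *Alb* (50445 and 53126 rpbp at ZT2, 93174 to 122523 at the other times), *Ttr* and *Tat* were lowest in both ZT2 libraries, whereas *Apoa1* was highest there (17423 and 17762 rpbp, against 7866 to 15191) and the other 4 were not set apart. The 7 markers other than *Alb* summed to 42692 and 44972 rpbp at ZT2, within the 41935 to 53350 rpbp of the other times. The sum of 6 Kupffer cell markers (resident macrophages) was 657 and 653 rpbp at ZT2 and 334 to 520 rpbp at the others. The 6 endothelial markers summed to 190 to 227 rpbp in all 12 libraries. Of 5 cholangiocyte markers only *Spp1* had a mean above 8 rpbp, and their sum was 129 and 230 rpbp at ZT2 and 64.7 to 146 rpbp at the other times. ZT2 held the lowest time-point mean of 6 of the 10 genes (*Pcyt1a*, *Pcyt2*, *Etnk2*, *Chpt1*, *Lpin1* and *Lpin2*) and of 21.9% of all expressed genes. Results are therefore also given without both ZT2 libraries, a comparison chosen after the data were seen, and the part of cell composition in them was not tested. The clock genes were examined as a check of the time labels, and *Arntl* was highest at ZT18 to ZT2 (22.2 to 29.4 rpbp, against 1.12 to 12.9 at the other times) and *Dbp* at ZT6 (193 and 241 rpbp).

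The choline kinases phosphorylate choline at the first step. *Chka* (chromosome 19, 3851773 to 3894369, + strand, mm9) had signals of 20.8 and 19.8 rpbp at ZT2, then 4.40 and 4.12 (ZT6), 5.92 and 4.88 (ZT10), 17.0 and 15.4 (ZT14), 26.7 and 36.2 (ZT18) and 36.5 and 38.1 (ZT22), in series 1 and 2. The 4 lowest values were those of ZT6 and ZT10, and the ZT22 samples lay above all others in both series. Its F24 was 0.958, at percentile 99.96 of all expressed genes, with a peak at 20.5 hr. The permutation p was 0.0001, the smallest that 10000 permutations can give (adjusted p = 0.0146). The fitted peak to trough difference was 3.01 ± 0.22 (log2(rpbp + 1) scale, standard error). Without the ZT2 libraries it was 3.01 ± 0.16, with an F24 of 0.960.

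*Chkb* (chromosome 15, 89246836 to 89260339, - strand) lay between 24.0 and 35.4 rpbp in all 12 samples, with an F24 of 0.0118 and a highest over lowest ratio of 1.48. Its fitted difference was 0.05 ± 0.15. In GENCODE, 47.3% of its exon bases are shared with *Cpt1b*, a neighbour on the same strand that makes carnitine palmitoyltransferase, so that its signal could include reads of *Cpt1b*. Of the summed choline kinase signal, *Chka* made up 11.2% at ZT6 and 57.7% at ZT22. The sum itself moved between 31.5 ± 2.32 rpbp at ZT10 and 64.6 ± 1.25 rpbp at ZT22, the latter within the spread of ZT18 (62.4 ± 13.0 rpbp).

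The ethanolamine kinases carry out the same step for ethanolamine. *Etnk2* (chromosome 1, 135260149 to 135276913, + strand), the ethanolamine kinase with the higher signal here, had 150.5 and 145.8 rpbp at ZT2, then 221.8 and 194.2 (ZT6), 305.9 and 202.2 (ZT10), 226.6 and 287.4 (ZT14), 153.8 and 156.5 (ZT18) and 141.5 and 161.1 (ZT22). All 6 values from ZT6 to ZT14 lay above all 6 from ZT18 to ZT2, but the series differed at ZT10, where series 1 was the higher. The F24 was 0.703 with a peak at 11.0 hr and a highest over lowest ratio of 2.16 (permutation p = 0.0035, adjusted p = 0.0544). The fitted difference was 0.90 ± 0.16 (limma adjusted p = 0.0117), and without ZT2 it was 0.87 ± 0.19 (limma adjusted p = 0.0457). Its time effect of any shape had a limma adjusted p of 0.0266, which became 0.0861 without ZT2. That call was also lost when any 1 of 6 libraries was left out, namely ZT2 or ZT6 of either series, ZT14 of series 2 or ZT18 of series 1 (limma adjusted p = 0.0508 to 0.0749).

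*Etnk1* (chromosome 6, 143115750 to 143157062, + strand) ran the other way at low amplitude. Its lowest value was 54.5 rpbp and its highest 70.0 rpbp, with a mean of 58.1 ± 5.06 rpbp at ZT10 and 68.4 ± 2.32 rpbp at ZT2. The F24 was 0.644 and the peak at 23.1 hr (permutation p = 0.009, adjusted p = 0.0823), but the highest over lowest ratio of 1.29 was under the limit of 1.5, so it was not called. The fitted difference was 0.22 ± 0.08 (limma adjusted p = 0.167). *Etnk2* made up between 68.4% of the summed ethanolamine kinase signal at ZT2 and 80.9% at ZT14.

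The cytidylyl-transferases form CDP-choline and CDP-ethanolamine, and the choline enzyme is known as the regulated step of its pathway. *Pcyt1a* (chromosome 16, 32431007 to 32475156, + strand) had 50.6 and 54.1 rpbp at ZT2, then 66.6 and 72.3 (ZT6), 79.8 and 85.2 (ZT10), 80.3 and 72.8 (ZT14), 82.6 and 76.5 (ZT18) and 79.2 and 66.2 (ZT22). The ZT2 samples were below all others, and both ZT10 samples lay above both ZT22 samples, while ZT14 and ZT18 overlapped with each of these. The F24 was 0.585 with a peak at 14 hr and a ratio of 1.68 (permutation p = 0.0175, adjusted p = 0.112). The fitted difference was 0.49 ± 0.13 (limma adjusted p = 0.0803). Without the ZT2 libraries *Pcyt1a* was no longer called, with an F24 of 0.314 (permutation p = 0.261), a ratio of 1.29 and a fitted difference of 0.22 ± 0.13. Leaving out ZT2 of series 1 alone also ended the call, and leaving out ZT2 of series 2 alone did not (F24 0.497 and 0.494). Without ZT22 of series 1 the F24 was higher, at 0.735. Its time effect of any shape went from a limma adjusted p of 0.0202 to 0.48 without ZT2, and was 0.130 and 0.085 without ZT2 of series 1 or of series 2 alone. The rhythm of *Pcyt1a* in these data therefore rested on the ZT2 libraries.

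*Pcyt2* (chromosome 11, 120471401 to 120479250, - strand) lay between 295.4 and 439.3 rpbp, with an F24 of 0.0588, a ratio of 1.49 and a fitted difference of 0.11 ± 0.14. Its highest mean was 415.4 ± 33.8 rpbp at ZT6 and its lowest 303.7 ± 11.8 rpbp at ZT2. It was above *Pcyt1a* in every sample, by between 3.94-fold and 6.60-fold.

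The phosphotransferases complete the synthesis: *Chpt1* transfers phosphocholine, and *Cept1* transfers either headgroup. *Chpt1* (chromosome 10, 87915490 to 87966818, - strand) had 117.5 and 135.8 rpbp at ZT2, then 261.9 and 303.6 (ZT6), 216.9 and 341.7 (ZT10), 192.7 and 166.4 (ZT14), 269.5 and 184.8 (ZT18) and 209.9 and 163.8 (ZT22). The ZT2 samples were the lowest of the 12, both samples of ZT6 lay above both of ZT14 and of ZT22, and the samples of ZT10 and of ZT18 differed between the series. The highest over lowest ratio was 2.91, but the F24 was 0.280 (permutation p = 0.231), and the fitted difference was 0.65 ± 0.31. Its time effect of any shape had a limma adjusted p of 0.0389, and 0.252 without the ZT2 libraries. That call was also lost when any 1 library of ZT2, ZT6 or ZT14 was left out (limma adjusted p = 0.0584 to 0.152). In GENCODE, 7.93% of its exon bases are shared with *Sycp3* on the opposite strand, and the deposited signal was summed without regard to strand.

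*Cept1* (chromosome 3, 106305178 to 106350720, - strand) lay between 59.1 and 90.0 rpbp, with an F24 of 0.0504, a ratio of 1.52 and a fitted difference of 0.11 ± 0.14. Its exons overlap those of *Dennd2d* on the opposite strand over 24.7% of their bases, so its level is uncertain. *Chpt1* was above it in every sample, by between 1.71-fold and 4.69-fold.

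The lipins supply the diacylglycerol, and *Lpin1* is also known as a transcriptional co-regulator of fatty acid oxidation genes in liver. *Lpin1* (chromosome 12, 16542475 to 16596576, - strand) had 10.5 and 7.72 rpbp at ZT2, then 38.4 and 24.0 (ZT6), 95.8 and 160.6 (ZT10), 49.2 and 33.8 (ZT14), 23.8 and 13.0 (ZT18) and 17.0 and 13.1 (ZT22). Both ZT10 samples lay above all others, and both ZT2 samples lay below all others. The highest over lowest ratio was 20.8, a ratio that 48 of the 1948 rhythmic genes reached, *Lpin1* among them. It was 12.4 without ZT10 of series 2, and 9.14 in series 1 alone. The F24 was 0.562 with a peak at 10.5 hr (permutation p = 0.0006, adjusted p = 0.025). The fitted difference was 3.02 ± 0.47, and without ZT2 it was 2.65 ± 0.50 (limma adjusted p = 0.0248).

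*Lpin2* (chromosome 17, 71531900 to 71599157, + strand) had 24.3 and 24.5 rpbp at ZT2, then 98.6 and 79.6 (ZT6), 89.6 and 156.1 (ZT10), 79.9 and 76.7 (ZT14), 67.3 and 49.7 (ZT18) and 38.9 and 35.1 (ZT22). The 4 samples of ZT2 and ZT22 lay below the 8 others. The F24 was 0.720 with a peak at 10.6 hr and a ratio of 6.42 (permutation p = 0.0012, adjusted p = 0.0335), and the ratio was 4.05 without ZT10 of series 2. The fitted difference was 1.94 ± 0.31, and without ZT2 it was 1.5 ± 0.22 (limma adjusted p = 0.0081).

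The log2 signals of the lipins had r = 0.908 over the 12 samples (given as a description because the samples share the time course). The summed lipin signal was lowest at ZT2, with 33.5 ± 1.81 rpbp, and reached 251.1 ± 92.9 rpbp at ZT10, and *Lpin1* made up 51.2% of it at ZT10 and 23.4% at ZT18. At ZT10 series 2 was the higher for *Lpin1*, *Lpin2* and *Chpt1* and the lower for *Etnk2*. The sum of 2 erythroid markers was also the highest of the 12 libraries there, with 857 rpbp, against 346 rpbp in ZT10 of series 1 and 295 to 584 rpbp at the other times, and its part in these values was not tested. *Lpin1* is also abundant in adipose tissue and muscle, so their markers were examined. The adipocyte genes *Adipoq* and *Plin* did not exceed 0.400 and 0.0800 rpbp in any library, while *Cfd* was 32.7 rpbp in ZT10 of series 2, 7.72 and 24.8 rpbp at ZT6, 4.48 rpbp in ZT18 of series 1, and 0.0400 rpbp or listed at 0 in the 8 other libraries. The 4 muscle markers summed to 15.3 rpbp in ZT18 of series 1 and to 0.320 rpbp or less in every other library. The part of either tissue in the *Lpin1* values was not tested.

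**Figure D3:**
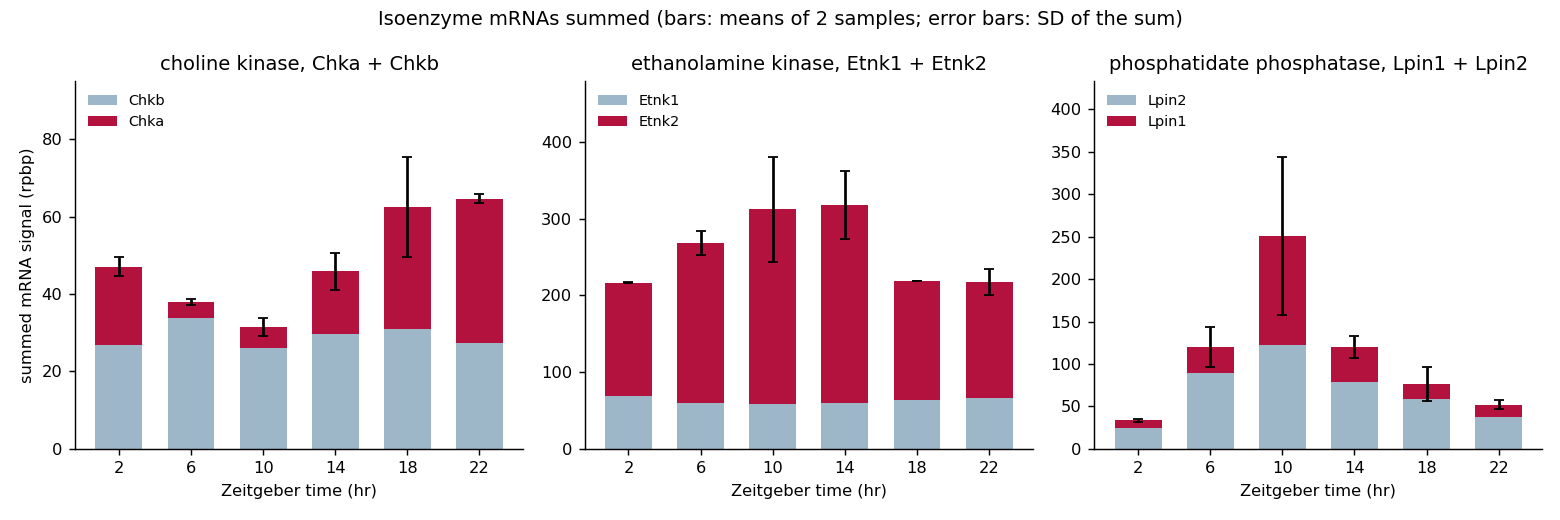
Summed mRNA signal in rpbp (y axis, from 0) of the isoenzymes of 3 steps against zeitgeber time in hr (x axis); bars are means of 2 samples, split by gene, and error bars are the SD of the sum. Choline kinase signal is highest at ZT18 and ZT22 (62.4 and 64.6 rpbp, within the spread of each other), and lipin signal is highest at ZT10 (251.1 rpbp).

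**Figure D4:**
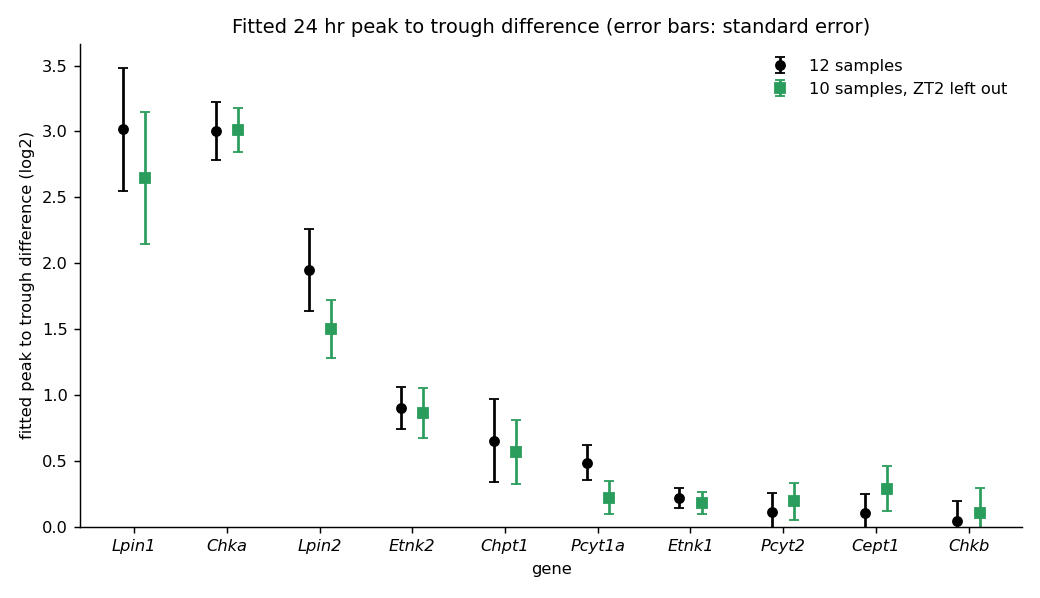
Fitted 24 hr peak to trough difference on the log2(rpbp + 1) scale (y axis) for each gene (x axis), with its standard error, from all 12 samples (black dots) and from the 10 samples without ZT2 (green squares). *Lpin1* and *Chka* are near 3 in the full data, and *Pcyt1a* moves from 0.49 to 0.22 without ZT2.

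Whether genes of 1 step differ in their course was tested on the log2 ratio of the partners within each sample, which does not depend on the scaling of the sample. Of 5 pairs compared, with p-values adjusted over the 5, the ratio had a 24 hr rhythm in 2. The *Chka* to *Chkb* ratio had an F24 of 0.899 and a fitted peak to trough difference of 3.32 on the log2 scale (permutation p = 8e-05, adjusted p = 0.0004), and went from 0.124 in the lowest sample to 1.39 in the highest. *Chkb* was the more abundant mRNA from ZT2 to ZT14 and *Chka* at ZT22, and at ZT18 they were nearly equal (mean log2 ratio 0.02 ± 0.02). This order and the ratio hold for the deposited signals, in which that of *Chkb* could include reads of *Cpt1b*. The *Etnk2* to *Etnk1* ratio had an F24 of 0.781 and a fitted difference of 1.13 (permutation p = 0.00183, adjusted p = 0.00458), between 2.08 and 5.62. *Etnk2* was the more abundant in every sample. The other 3 pairs did not pass: *Chpt1* to *Cept1* had a fitted difference of 0.75 (adjusted p = 0.0917), *Pcyt2* to *Pcyt1a* of 0.42 (adjusted p = 0.0938) and *Lpin1* to *Lpin2* of 1.16 (adjusted p = 0.0938). The *Lpin1* to *Lpin2* ratio was 1.07 in the highest sample, both values above 1 being those of ZT10, and its mean log2 was 0.07 ± 0.04 at ZT10 and between -1.72 and -0.94 at the other times. That pair passed when ZT6 of series 2 was left out (adjusted p = 0.0421), and its p-value with all samples does not show that the courses are alike.

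**Figure D5:**
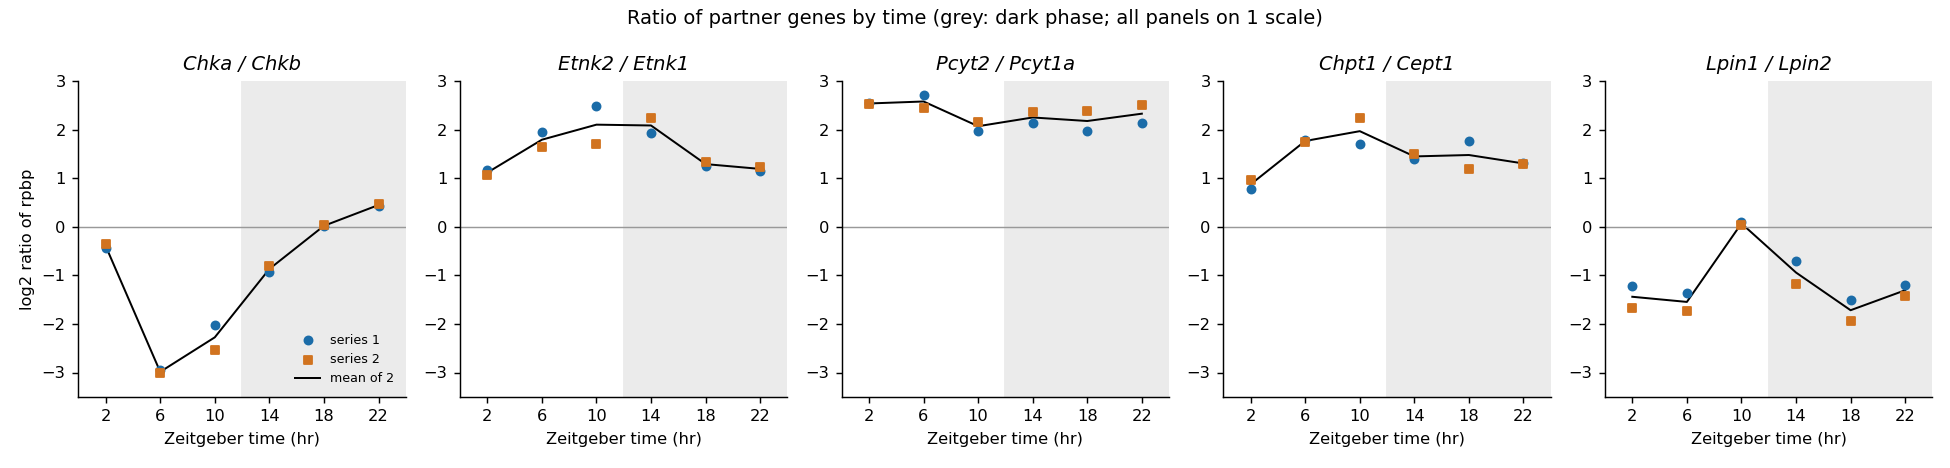
log2 ratio of the rpbp of 2 partner genes (y axis, the same range in every panel) against zeitgeber time in hr (x axis); dots are series 1, squares are series 2, the black line joins the means, and the grey line marks equal signal. The *Chka* to *Chkb* ratio crosses it at ZT18, and the *Lpin1* to *Lpin2* ratio reaches it at ZT10 alone.

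The peak of *Chka* was 10 hr from that of *Lpin1*, 9.88 hr from that of *Lpin2*, 9.49 hr from that of *Etnk2* and 6.45 hr from that of *Pcyt1a*. Those of *Lpin1*, *Lpin2* and *Etnk2* lay within 0.511 hr of each other, which is less than the 4 hr between samples. Within 2 hr of the peak of *Lpin1* lay 24.4% of all rhythmic genes, and within 2 hr of that of *Chka* 16.6%. Taken alone, each series gave *Chka* a peak at 20.6 or 20.3 hr and *Lpin1* at 10.8 or 10.3 hr. For *Etnk2* the peaks were 10.1 and 12.3 hr, and for *Pcyt1a* 15.3 and 12.5 hr. A limma test of a different rhythm in the series called none of the 10 genes and 0 of 10198 genes at an adjusted p below 0.05. At an unadjusted p below 0.05 it gave 176 genes and none of the 10, whose p-values were 0.233 to 0.856. The error term of this test also holds changes over time that a cosine leaves out, so a difference could be missed. It therefore does not show that the series are alike.

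The genes whose courses were most like those of the rhythmic genes were taken by Pearson's r of log2(rpbp + 1) over the 12 samples, among 8953 genes with a mean of at least 8 rpbp. For *Chka* they included *Nfil3* (r = 0.979) and *Pnrc1* (0.973). For *Pcyt1a* they were *Acsl1* (0.963), *Plekha8* (0.955) and *Rad54l2* (0.953). For *Lpin1* they included *Anxa11* (0.977) and *Pctk3* (0.933), and for *Lpin2* they included *Mknk2* (0.986) and *Slc22a5* (0.979). For *Etnk2* they were *Tuc1* (0.9997), *Efhd2* (0.949) and *Ppif* (0.934), and *Tuc1* is listed by RefSeq as another name of *Etnk2*, so that it is a second row of the same gene. These values describe likeness over samples that share the time course and carry no test.

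Genes of the neighbouring pathways were taken from lists. Of 12 expressed genes of choline and ethanolamine supply and breakdown, 5 were rhythmic (19.1% of all expressed genes were), and 4 also had an adjusted permutation p below 0.05 (4.81% of all). *Pnpla7*, a lysophospholipase, had a peak at 2.92 hr (F24 0.927, adjusted p = 0.0167), with 56.6 ± 1.87 rpbp at ZT2 and 34.4 ± 2.52 rpbp at ZT14. *Pld1*, a phospholipase D that releases choline from phosphatidylcholine, was low, with 10.8 ± 0.198 rpbp at ZT2 and 3.78 ± 0.651 rpbp at ZT10 (F24 0.845, adjusted p = 0.0269). *Phospho1*, a phosphatase of phosphocholine and phosphoethanolamine, had a peak at 1.43 hr (F24 0.776, adjusted p = 0.0421), with 39.1 ± 5.20 rpbp at ZT2 and 10.1 ± 0.877 rpbp at ZT14. *Gde1*, a glycerophosphodiesterase listed here under its older symbol *Mir16*, peaked at 13.4 hr (F24 0.751, adjusted p = 0.028), with 149.2 ± 16.2 rpbp at ZT14 and 72.9 ± 6.31 rpbp at ZT2. All 5 of the list were also called without the ZT2 libraries.

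Of 13 expressed genes of the glycerol backbone and of diacylglycerol use, 3 were rhythmic, a share near the 19.1% of all expressed genes, and *Dgat1*, which makes triglyceride from diacylglycerol, also passed the adjusted test (F24 0.783, peak at 9.32 hr, adjusted p = 0.0487), with 27.2 ± 1.25 rpbp at ZT10 and 19.3 ± 0.651 rpbp at ZT2. Its highest over lowest ratio of 1.51 was just above the limit, and *Dgat1* was the 1 of the 3 not called without ZT2, where the ratio was 1.45 (F24 0.883). Of 9 expressed genes of other phospholipid synthesis 1 was rhythmic and none without ZT2, of 8 of transfer and export 1 was rhythmic, and of 5 of acyl chain remodelling none was, against 1 without ZT2, and these counts too are read against 19.1% with all samples and 15.1% without ZT2. None of these passed the adjusted test.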

How the data were processed

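mRNA was sequenced in 12 mouse liver samples, at 6 time points in 2 series, after TruSeq library preparation. Per the labels and the study's methods, the authors mapped sequences to mm9 with TopHat (base calls with CASAVA 1.8), kept those with a unique place, and summed the coverage over the flattened exons of each gene without strand. That coverage, in reads per base pair (rpbp), is the deposited signal, given by the authors per 10000000 sequences with a unique place. It was multiplied by 4 here. Scaled coverage holds no read counts, so the depth is unknown from the values and no counting interval is given. The deposited F24 score, p-value and phase are the authors' own comparisons and were not used. Columns named ZT20 belong to the samples labelled ZT22.

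Groups came from the labels. F24 was the share of variance in a least-squares 24 hr cosine over the 12 values. Its p, the share of orders with an F24 as high or higher at any phase, came from 10000 permutations (seed 1), for ratios from 100000, and within 1 series from all 720 orders, where the smallest p is 0.0167. limma 3.58.1 (R 4.3.3) was fitted to log2(rpbp + 1) of the 10198 expressed genes, and p-values were adjusted over all of these after Benjamini and Hochberg. A fitted difference is 2 times the cosine amplitude on that scale, whose pseudocount of 1 understates the change of low genes. Nothing in the labels says that the samples of a time point come from separate animals beyond their replicate numbers, so p-values hold for these samples only. The permutation p-values come from shuffling all values of a gene or ratio. The limma cosine and series tests, and the standard errors, use all variation that the fitted cosines leave. Only the test for a time effect of any shape uses the spread within a time point. F24 and the limma fits were tested on simulated data. Values were given in every sample for genes called by either test, and genes of other lists were named where both the criteria and the adjusted p called them; the 3 most alike genes were taken for each rhythmic gene, and some of these are not reported here. The genes and the lists were chosen with earlier results of these data known. Exon overlaps are those of GENCODE, whereas the authors used a UCSC annotation. Python 3.11.15, numpy 2.4.6, scipy 1.17.1 and pandas 2.3.3 were used.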

Additional observations from a re-analysis of the deposited data

How the results depend on the processing

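With 2 samples a time point and time points 4 hr apart, small or brief changes could be missed. The authors' scaling sets every sample to the same number of sequences with a unique place, so values are relative within a sample. Of the 10 genes, 5 were rhythmic under 16 rpbp or no minimum, size factors, F24 on either log2 scale, amplitudes from time-point means and the replicate block, against 13.8% to 20.8% of all genes tested under the same settings. With the adjusted permutation p, 3 genes were called, and 491 of all expressed genes against 1948; with the criteria and limma's adjusted p for the cosine in place of the permutation p, 4 were called and 875. The numbers of the series did not pair the samples (correlation of deviations -0.15 to 0.21 over 15 pairs of time points, over 0.1 in 2), and with the replicate block 2118 genes were rhythmic and 1706 had a time effect, against 2076. Series 1 or series 2 alone gave 2 or 1 rhythmic genes of the 10, and 286 or 369 of all. *Chka* was called in both series and *Etnk2* in series 1. When any 1 library was left out, only *Pcyt1a* lost its call, without ZT2 of series 1. The share over all genes was not computed for those settings. A single library left out gave 3 to 6 of the 10 with a time effect and 928 to 2023 of all; the lowest counts came without ZT2 of either series. Without both ZT2 libraries, 3 of the 10 (*Chka*, *Lpin1* and *Lpin2*) and 627 of all had a time effect, and 4 and 1538 were rhythmic. *Chpt1* lost its time effect with no minimum (adjusted p = 0.0832) and with the replicate block (0.062), and *Etnk2* with no minimum (0.0574). With 1 series alone, limma's cosine test called 0 of the 10 and 0 to 1 of all 10198, and 0 of the 5 ratios passed, against up to 3 with 1 library left out. The cause of these changes was not tested, except that 1 series has fewer samples.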
